A study of Mus musculus with 12 samples.

Results

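Collagens and the main genes of the interstitial matrix were followed across 4 cell types sorted from the early mouse embryo. The set held every gene whose symbol names a collagen alpha chain, 44 genes in all, together with Fn1, Tnc, Vcan, Has2, Fbn1, Fbn2 and Sparc. It therefore had 51 members among the 38924 genes counted. The choice was made by symbol and not by level, but with earlier results of these data known. Of the members, 33 had enough counts to be tested (26 collagens and all 7 others), 18 collagens did not, and 5 of those 18 (Col3a1, Col6a3, Col6a4, Col6a5 and Col28a1) had 0 counts in all 12 libraries.

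The interstitial matrix is the loose scaffold that cells secrete between tissue layers, as opposed to the basement membrane sheet beneath an epithelium. Fibronectin fibrils, hyaluronan and the hyaluronan-binding proteoglycan versican make up much of the early embryonic form of it, and migrating mesoderm moves through it. Collagen chains assemble in triplets, so that a type of collagen can need the products of more than 1 gene. Type 4 collagen forms the network of basement membranes, fibril-forming collagens such as types 1, 2 and 5 give tissues tensile strength, and most of the remaining chains sit on fibrils, at the cell surface or in anchoring structures.

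All libraries came from embryos of stage E7.25 carrying Foxa2Cre:Rosa26-YFP, in which Cre recombinase driven by Foxa2 switches on a yellow fluorescent protein (YFP) in cells that express Foxa2, and in their descendants. There were 3 libraries each of YFP-positive cardiac mesoderm (called ventricular in the labels), YFP-negative cardiac mesoderm (called non-ventricular), endoderm sorted as EPCAM+ and hematopoietic mesoderm sorted as KDR+. The first pair are called the YFP+ and the YFP- fraction below. The labels give neither the YFP status of the endoderm and hematopoietic cells nor the number of embryos behind a library. Because nothing states that libraries of a type came from separate embryos or litters, p-values measure only the spread between these libraries, and in bulk RNA fewer cells of a type cannot be told apart from less RNA per cell.

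Gene counts totalled 4472800 to 7888631 per library. Levels are given as library-size scaled counts (CPM) after scaling by the trimmed mean of M-values (TMM). On that scale 3 counts correspond to 0.357 to 0.723 CPM. The summed level of 10 cardiac mesoderm markers was 2097 to 2457 CPM in the YFP+ fraction and 1782 to 1978 CPM in the YFP- fraction, 1074 to 2221 in hematopoietic mesoderm and 166 to 239 in endoderm. The 8 endoderm markers summed to 1607 to 1994 CPM in endoderm and at most 249.9 elsewhere, and the 10 hematopoietic and endothelial markers to 1174 to 2215 CPM in hematopoietic mesoderm and at most 386 elsewhere. The 8 visceral endoderm markers were also high in the endoderm libraries, at 2116 to 5825 CPM, against at most 271 in any other library, and 7 epiblast and ectoderm markers reached 768 to 843 CPM there, against at most 449 elsewhere. Hematopoietic replicate 3 stood apart from its 2 companions for several members. It also had the highest summed cardiac markers of its type, 2221 CPM against 1074 and 1203, and the lowest hematopoietic and endothelial markers, 1174 CPM against 2011 and 2215. Among the YFP+ libraries, replicate 2 had 386 CPM of hematopoietic and endothelial markers, against 55.2 and 118. The 6 markers of extraembryonic mesoderm and allantois summed to 304 to 939.7 CPM in the 9 mesoderm libraries and 32.1 to 119.9 CPM in endoderm, the same split as for Fn1 and Vcan. The part of these cells in the members' levels was not tested.

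Across the whole set, the non-collagen genes carried most of the counts and most of the difference between types. Their 7 levels summed to 3968 ± 134 CPM (SD, n = 3) in the YFP+ fraction, 3537 ± 98.8 in the YFP- fraction, 1078 ± 57.7 in endoderm and 4673 ± 365 in hematopoietic mesoderm. The highest endoderm library stood at 1142 CPM and the lowest of the other 9 at 3465 CPM. The 44 collagens together gave 651 ± 173 CPM in the YFP+ fraction, 513 ± 53.6 in the YFP- fraction, 530 ± 81.9 in endoderm and 674 ± 124 in hematopoietic mesoderm. Their libraries overlapped between all types, so the endoderm stood low for the fibronectin, versican and hyaluronan group but not for summed collagen. Fn1 and Vcan alone took 65.4% ± 6.75 of the set's CPM in the YFP+ fraction, 68.4% ± 0.801 in the YFP- fraction, 68.6% ± 3.14 in hematopoietic mesoderm and 46.9% ± 4.85 in endoderm, counts that are not corrected for gene length.

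**Figure D1:**
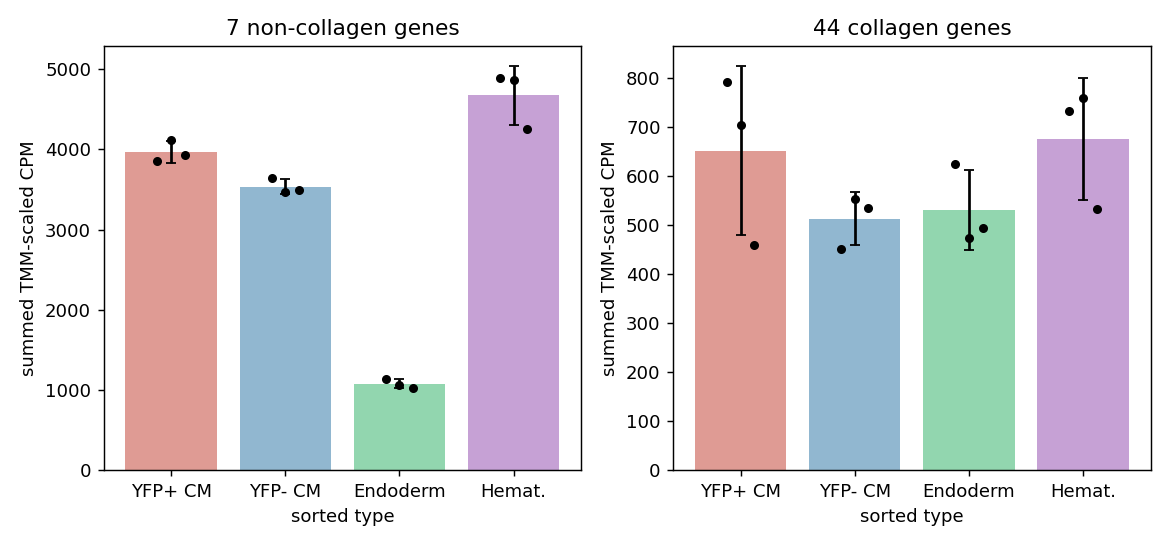
Summed TMM-scaled CPM of the 7 non-collagen genes (left) and the 44 collagen genes (right), with sorted type on the x axis, bars for the mean of 3 libraries, error bars for the SD and points for single libraries. CM is cardiac mesoderm and Hemat. is hematopoietic mesoderm. The endoderm bar is at 1078 CPM on the left, under every library of the other types, while the collagen sums overlap on the right.

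Between the types, edgeR's quasi-likelihood test (Benjamini-Hochberg adjusted over the 14170 genes tested, called at an adjusted p under 0.05) called 9 of the 33 tested members for any difference among the 4 types, against 6.03% of all genes. These were Vcan, Fn1, Col2a1, Has2, Fbn1, Fbn2, Col1a1, Tnc and Col27a1. In pairs, 7 members differed between the YFP+ fraction and endoderm, where 1.54% of all genes were called. For the YFP- fraction against endoderm the number was 4, with 1.31% of all genes called, and for endoderm against hematopoietic mesoderm it was 8, with 5.65%. No member was called between the cardiac fractions or between either of them and hematopoietic mesoderm. Fn1, Vcan and Has2 were lower in endoderm than in each of the other 3 types, as were 0.466% of all genes, and Col2a1 was higher there than in each, as were 0.303%. Of the members called against endoderm, 6 were higher and 1 lower in the YFP+ fraction (0.953% and 0.586% of all genes), 3 were higher and 1 lower in the YFP- fraction (0.706% and 0.6%), and 7 were higher and 1 lower in hematopoietic mesoderm (2.42% and 3.23%). DESeq2 called 7, 8 and 13 members in these 3 pairs, against 8.1%, 5.05% and 14.2% of its genes. The pairs share libraries and are not independent of one another.

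Several members called lower in endoderm in at least 1 pair have promoter entries in RefSeq. The 250 bases before the start sites of Vcan, Fbn1, Tnc and Col27a1 are shown. Fbn1 was called lower in endoderm against hematopoietic mesoderm only. Capitals mark the GC box GGGCGG or its reverse complement, searched on both strands. All coordinates are of RefSeq's GRCm38.p6 build, on the minus strand for Vcan at chr13:89742513-89742762, Fbn1 at chr2:125506439-125506688 and Tnc at chr4:64047016-64047265, and on the plus strand for Col27a1 at chr4:63215162-63215411.
Vcan: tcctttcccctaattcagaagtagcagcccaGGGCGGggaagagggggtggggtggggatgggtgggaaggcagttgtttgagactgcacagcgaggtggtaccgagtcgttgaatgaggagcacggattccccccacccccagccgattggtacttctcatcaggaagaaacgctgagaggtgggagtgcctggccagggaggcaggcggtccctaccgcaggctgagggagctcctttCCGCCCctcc
Fbn1: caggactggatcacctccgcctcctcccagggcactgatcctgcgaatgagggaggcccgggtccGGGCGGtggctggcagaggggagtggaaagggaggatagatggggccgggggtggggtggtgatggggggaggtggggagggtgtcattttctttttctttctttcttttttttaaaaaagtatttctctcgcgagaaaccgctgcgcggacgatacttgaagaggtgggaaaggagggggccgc
Tnc: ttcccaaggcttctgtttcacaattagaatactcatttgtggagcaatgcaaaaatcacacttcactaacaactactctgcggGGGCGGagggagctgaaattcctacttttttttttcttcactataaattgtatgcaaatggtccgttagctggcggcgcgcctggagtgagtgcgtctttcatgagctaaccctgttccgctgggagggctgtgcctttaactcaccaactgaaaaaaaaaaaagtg
Col27a1: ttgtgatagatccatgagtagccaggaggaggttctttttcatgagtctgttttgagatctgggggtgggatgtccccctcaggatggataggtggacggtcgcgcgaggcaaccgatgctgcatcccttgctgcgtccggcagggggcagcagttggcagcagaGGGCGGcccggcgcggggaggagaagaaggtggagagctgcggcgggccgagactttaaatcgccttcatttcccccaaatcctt
Each window holds at least 1 GC box, as do 32.9% of 27025 mouse promoter windows of the same length. Vcan's also holds the letters CCAAT on 1 strand, present in 34.5% of windows, and Tnc's the letters TATAAA, present in 3504 of the 27025. These matches describe the letters only, and the few windows shown do not measure how common the box is among members lower in endoderm. Fn1 and Has2 have no promoter entry, and no window is given for Fbn2. Col1a2, which was called in no endoderm pair, has 2 GC boxes in its window. In all, 39 of the 51 members have such an entry.

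Fn1, which encodes fibronectin (ENSMUSG00000026193.9, chr1:71585520-71653200 on the minus strand, mm10), took the most counts of any member in every library. Its level was 2041, 2049 and 2143 CPM in the YFP+ fraction, 2032, 1855 and 1922 in the YFP- fraction, 728, 701 and 578 in endoderm, and 2473, 2119 and 2389 in hematopoietic mesoderm. The 9 mesoderm libraries thus lay far above the 3 endoderm libraries and close to each other. Relative to endoderm, the log2 fold change was 1.63 ± 0.10 (SE) for the YFP+ fraction (edgeR adjusted p = 2.49e-06), and the YFP- fraction was at 1.53 ± 0.10 (adjusted p = 4.74e-06). For endoderm over hematopoietic mesoderm it was -1.80 ± 0.10 (edgeR adjusted p = 8.03e-07). Among the mesoderm types the differences were small, with a 95% interval of -0.10 to 0.31 for the YFP+ over the YFP- fraction.

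Vcan, the gene of the proteoglycan versican (chr13:89655312-89742509 on the minus strand, promoter shown above), had a wider range between types than Fn1. It read 795, 937 and 1074 CPM in the YFP+ fraction, 803, 858 and 838 in the YFP- fraction, 73.2, 100.5 and 77.3 in endoderm, and 1375, 1577 and 1052 in hematopoietic mesoderm. Every endoderm library was under every mesoderm library, and the hematopoietic libraries were high. The log2 fold change over endoderm was 3.48 ± 0.18 in the YFP+ fraction (edgeR adjusted p = 9.09e-07), and the YFP- fraction was at 3.32 ± 0.18 (adjusted p = 1.53e-06). Endoderm over hematopoietic mesoderm gave -4.00 ± 0.19 (edgeR adjusted p = 2.15e-07). Versican binds hyaluronan, and link proteins such as the product of Hapln1 stabilise that bond. The calls of Fn1 and Vcan in the 3 endoderm pairs held under all 12 alternatives run for each.

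Has2, the hyaluronan synthase that makes most of the embryo's hyaluronan (chr15:56665627-56694539 on the minus strand), was likewise lowest in endoderm. In the YFP+ fraction it read 190.4, 217 and 155 CPM, in the YFP- fraction 178, 148 and 237, in endoderm 36.4, 20.8 and 50.9, and in hematopoietic mesoderm 91.5, 173 and 156. Endoderm was again under all other libraries, while the 3 mesoderm types overlapped. Both cardiac fractions exceeded endoderm by a log2 fold change of 2.38 ± 0.37, with edgeR adjusted p = 0.00517 for the YFP+ and 0.00504 for the YFP- fraction. Endoderm over hematopoietic mesoderm was -1.96 ± 0.36 (edgeR adjusted p = 0.00956), a call that was lost without endoderm replicate 1 (adjusted p = 0.0559) or replicate 2 (0.0538). An antisense gene, Has2os, overlaps Has2 exons, genes on the opposite strand also overlap exons of Fn1, Fbn1, Fbn2, Tnc, Col5a1, Col9a3, Col4a1 and Col4a2, and the strand setting of the counting is not given in the sources used here.

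**Figure D2:**
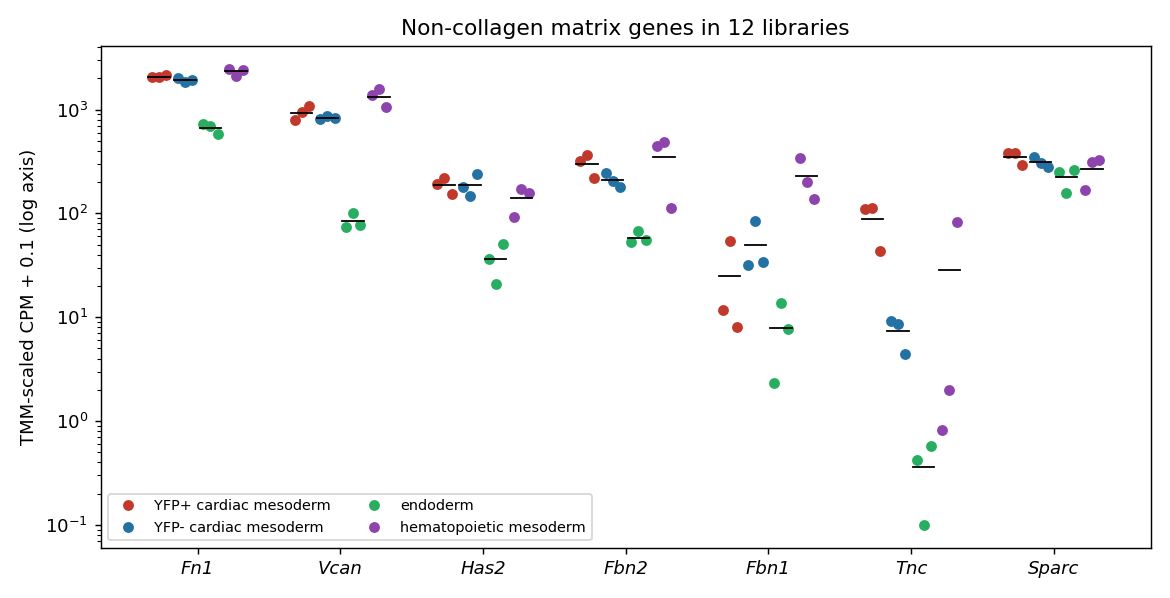
TMM-scaled CPM plus 0.1 on a log axis for each of the 7 non-collagen genes, with 1 point per library, colours for the 4 sorted types and a line at each mean of 3 libraries. The endoderm points of Fn1, Vcan, Has2 and Fbn2 lie low, at 36.0 CPM on average for Has2, and Tnc spans the widest range of the 7.

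The fibrillins build the microfibrils that scaffold elastic fibres and hold growth factors of the TGF-beta family. Fbn2 read 319.7, 363 and 219 CPM in the YFP+ fraction, 242, 204 and 178 in the YFP- fraction, 52.6, 67.8 and 54.8 in endoderm, and 441, 488 and 113 in hematopoietic mesoderm. All endoderm libraries were lowest, and hematopoietic replicate 3 was nearer to them than its companions were. The YFP+ fraction exceeded endoderm by 2.36 ± 0.42 on the log2 scale (edgeR adjusted p = 0.0127), a call lost without endoderm replicate 1, 2 or 3 (adjusted p = 0.0963, 0.0567 and 0.0892). The YFP- fraction was at 1.83 ± 0.41 over endoderm (edgeR adjusted p = 0.0511), just outside the threshold. Endoderm over hematopoietic mesoderm was -2.57 ± 0.42 (edgeR adjusted p = 0.00516) and was called in all 12 alternatives, at -2.99 ± 0.23 (adjusted p = 2.92e-05) without hematopoietic replicate 3.

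Fbn1, the second fibrillin, was by contrast a hematopoietic-high gene. Its level was 11.7, 54.7 and 7.96 CPM in the YFP+ fraction, 31.5, 84.1 and 34.2 in the YFP- fraction, 2.23, 13.5 and 7.61 in endoderm, and 345, 202 and 137 in hematopoietic mesoderm. Each hematopoietic library lay above all 9 others, and the highest YFP+ value was in replicate 2, the YFP+ library with the most hematopoietic and endothelial marker counts. The part of hematopoietic cells in that value was not tested. Endoderm over hematopoietic mesoderm differed by -4.87 ± 0.88 on the log2 scale (edgeR adjusted p = 0.00894), which was lost without endoderm replicate 3 (0.0623) and was -5.12 ± 0.91 (0.00876) without hematopoietic replicate 3. The YFP+ fraction was at -3.20 ± 0.82 against hematopoietic mesoderm (edgeR adjusted p = 0.0686) and the YFP- fraction at -2.19 ± 0.78 (edgeR adjusted p = 0.187), neither of them called. Per kilobase of exon, Fbn1 and Fbn2 stood at mean levels of 18.8 and 26.3 CPM per kb in hematopoietic mesoderm, but at 2.04 and 22.8 CPM per kb in the YFP+ fraction.

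Tnc encodes tenascin-C, an adhesion-modulating glycoprotein of embryonic and remodelling matrix (chr4:63959785-64047015 on the minus strand). It had 110.3, 113 and 43.5 CPM in the YFP+ fraction, 9.05, 8.55 and 4.35 in the YFP- fraction, and 0.723, 1.91 and 81.7 in hematopoietic mesoderm. The 3 endoderm libraries held 2, 0 and 4 counts. Every YFP+ library therefore exceeded every YFP- one, and the hematopoietic mean of 28.1 CPM rests on replicate 3, which held 389 counts against 3 and 11. For the YFP+ over the YFP- fraction the log2 fold change was 3.60 ± 1.41 (edgeR adjusted p = 0.626), not called, with a 95% interval of 0.56 to 6.64.

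Against endoderm, Tnc was called higher in the YFP+ fraction (8.28 ± 1.79 on the log2 scale, edgeR adjusted p = 0.0378), where the low endoderm counts make the size uncertain, and in hematopoietic mesoderm (edgeR adjusted p = 0.0396). The first of these calls was lost whenever any 1 of the 6 libraries compared was left out, at adjusted p from 0.0552 to 0.2, and with the replicate number as a block (0.0554). The second was lost without endoderm replicate 1, 2 or 3 (0.141, 0.143 and 0.134) and without hematopoietic replicate 3 (0.201), where the log2 fold change of endoderm over hematopoietic mesoderm moved from -6.62 to -2.24. It was also lost with the replicate block (0.103) and in limma voom with library weights (-3.74, adjusted p = 0.166). Without hematopoietic replicate 3, Tnc was called higher in the YFP+ fraction than in hematopoietic mesoderm, by 6.04 ± 1.16 on the log2 scale (edgeR adjusted p = 0.0177). With all libraries that difference was 1.66 ± 1.30 (edgeR adjusted p = 0.53).

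Sparc, a collagen-binding glycoprotein abundant in basement membranes and mineralised matrix, was the most even of the 7. It read 384, 381 and 294 CPM in the YFP+ fraction, 353, 308 and 282 in the YFP- fraction, 249.6, 156 and 262 in endoderm, and 169, 310.2 and 324 in hematopoietic mesoderm. The endoderm libraries were under both cardiac fractions but overlapped hematopoietic mesoderm. No pair was called, and the log2 fold change of the YFP+ fraction over endoderm was 0.67 ± 0.26 (edgeR adjusted p = 0.212), with a 95% interval of 0.11 to 1.22. Sparc is also made in quantity by parietal endoderm. The 9 parietal endoderm markers summed to 608 to 734 CPM in endoderm and 372 to 631 in hematopoietic mesoderm. Their sums were 348 to 769 CPM in the YFP+ and 390 to 423 in the YFP- fraction. The part of such cells in the Sparc levels was not tested.

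Levels per kilobase of exon compare genes of unequal length only roughly, since the lengths join all annotated exons of a gene. Ranked this way, Fn1 led in YFP+, YFP- and hematopoietic mesoderm, with mean levels of 178, 166 and 199 CPM per kb. Sparc came next in the cardiac fractions at 93.2 and 82.9 CPM per kb, ahead of Vcan at 64.7 and 57.6. In hematopoietic mesoderm Vcan was at 92.3 and Sparc at 70.6 CPM per kb. In endoderm Sparc (58.7) and Fn1 (57.3 CPM per kb) were alike in level, and Vcan was at 5.78 CPM per kb, under Col4a1 at 24.5 and Col4a2 at 14.2.

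Among the collagens, the network-forming type 4 chains held the most counts. Col4a1 and Col4a2 made up 51.6% ± 7.52 of all collagen CPM in the YFP+ fraction, 45.4% ± 3.93 in the YFP- fraction, 51.8% ± 5.27 in endoderm and 59.3% ± 6.49 in hematopoietic mesoderm. Col4a1 read 268, 251 and 149 CPM in the YFP+ fraction, 146, 127 and 137 in the YFP- fraction, 241, 144 and 165 in endoderm, and 179, 267 and 179 in hematopoietic mesoderm. The YFP- libraries were the lowest group, though endoderm replicate 2 fell within their range. Col4a2 read 209, 86.0 and 64.6 CPM, then 66.2, 98.4 and 121, then 115, 76.0 and 91.4, and 212, 176 and 173 CPM in the same order of types. For this partner chain only the hematopoietic libraries stood high, overlapping YFP+ replicate 1.

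No pair of types was called for either chain. The largest Col4a1 difference, YFP+ over the YFP- fraction, was 0.70 ± 0.28 on the log2 scale (edgeR adjusted p = 0.626). For Col4a2 the largest was endoderm over hematopoietic mesoderm, at -0.99 ± 0.40 (edgeR adjusted p = 0.156). The ratio of the 2 chains per kilobase ranged from 0.747 to 2.59 over the 12 libraries, with a median of 1.47. In the mouse genome these 2 genes lie head to head on chromosome 8, and in RefSeq's GRCm38.p6 their start sites at 11312826 (Col4a1, minus strand) and 11312805 (Col4a2, plus strand) leave 22 shared bases. The other type 4 chains were uneven. Col4a6 held 180, 49 and 3 counts in the YFP+ libraries, and Col4a3 reached 107 counts in YFP+ replicate 2 against 1 and 0.

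**Figure D3:**
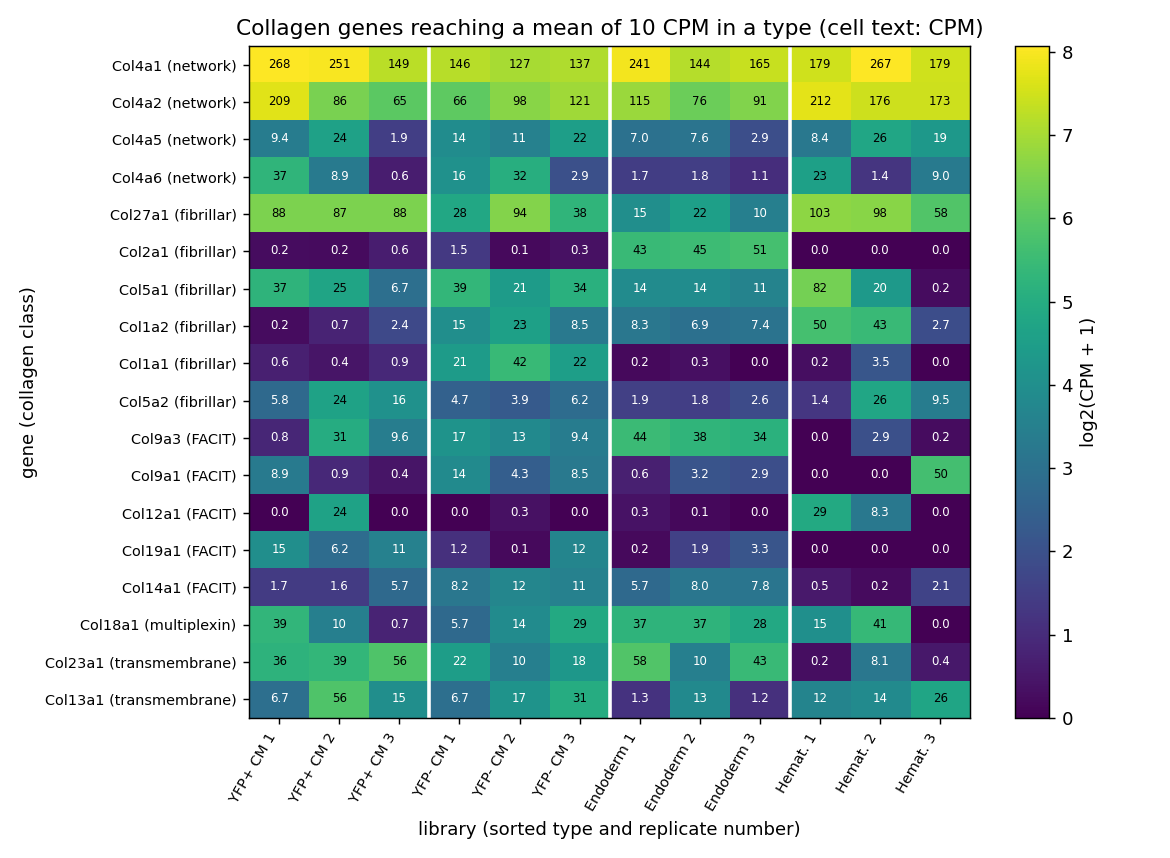
Levels of the 18 collagen genes that reached a mean of 10 CPM in at least 1 type, with genes and their classes as rows, the 12 libraries as columns (CM is cardiac mesoderm, Hemat. is hematopoietic mesoderm), log2(CPM + 1) as colour and CPM as cell text. Col4a1 and Col4a2 are high throughout, Col2a1 is high in endoderm alone at 43.4 to 51.1 CPM, and Col1a1 in the YFP- fraction alone at 20.6 to 42.0 CPM.

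Fibril-forming collagens summed to 140 ± 0.542 CPM in the YFP+ fraction, 146 ± 40.0 in the YFP- fraction, 94.1 ± 7.11 in endoderm and 169 ± 88.5 in hematopoietic mesoderm, but different genes made up these sums. Col27a1, a fibrillar collagen best known from cartilage, had the highest mean of them in each mesoderm type. In YFP- replicate 1, however, Col5a1 was higher, at 39.2 CPM. Col27a1 read 87.6, 87.3 and 88.3 CPM in the YFP+ fraction, 27.7, 94.3 and 37.8 in the YFP- fraction, 14.8, 22.4 and 10.2 in endoderm, and 103, 98.4 and 57.8 in hematopoietic mesoderm. All mesoderm libraries were above all endoderm libraries. The YFP+ fraction exceeded endoderm by 2.47 ± 0.54 on the log2 scale (edgeR adjusted p = 0.039), a call lost with any 1 of the 6 libraries left out (adjusted p from 0.0825 to 0.221). Endoderm over hematopoietic mesoderm was -2.45 ± 0.54 (edgeR adjusted p = 0.0243), lost without endoderm replicate 1, 2 or 3 (0.106, 0.0636 and 0.118) or hematopoietic replicate 1 (0.0544). The YFP- fraction was not called against endoderm, at 1.75 ± 0.53 (edgeR adjusted p = 0.143).

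Col2a1, the chain of type 2 collagen known from cartilage, notochord and some embryonic epithelia (chr15:97975602-98004695 on the minus strand), was the 1 member called higher in endoderm. The endoderm libraries held 273, 350 and 430 counts, which is 43.4, 45.3 and 51.1 CPM. The YFP+ libraries held 1, 1 and 3 counts, the YFP- ones 9, 1 and 2, and the hematopoietic ones 0, 0 and 0. Endoderm was at least 74.7-fold higher than hematopoietic mesoderm when each of its libraries is set to the limit of 3 counts, and the ratio to the YFP+ fraction was 147 (95% exact interval 63.0 to 455, covering counting error only). Against hematopoietic mesoderm the call (edgeR adjusted p = 0.00542) held under all 12 alternatives, with adjusted p from 7.11e-11 to 0.0318. The calls against the YFP+ (edgeR adjusted p = 0.0282) and YFP- fractions (0.0476) were each lost with any 1 of the 6 libraries left out, at adjusted p from 0.0656 to 0.143 and from 0.0712 to 0.217. With the replicate number as a block they stood at 0.0595 and 0.0935, the second was at 0.0568 without the expression filter, and DESeq2 gave 3.27e-10 and 5.06e-10.

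Markers of the node and notochord, which also make type 2 collagen, were measured beside it. Foxj1 averaged 80.7 CPM, Chrd 66.2, Noto 16.5 and Shh 3.88 in endoderm, and each averaged at most 0.50 CPM in every other type. The fifth and sixth genes of that list did not follow, since T averaged 65.5 to 283 CPM in all 4 types and Nog at most 4.37 CPM. Col9a3, a chain of type 9 collagen that decorates type 2 fibrils, read 44.4, 38.2 and 34.5 CPM in endoderm against 0, 2.94 and 0.210 in hematopoietic mesoderm. It read 0.832, 30.6 and 9.62 CPM in the YFP+ and 16.6, 13.3 and 9.41 in the YFP- libraries. The YFP+ libraries overlapped the hematopoietic ones, the YFP- libraries lay between hematopoietic mesoderm and endoderm, and no pair was called (endoderm over hematopoietic mesoderm 5.15 ± 1.51, edgeR adjusted p = 0.062). The part of node or notochord cells in the Col2a1 and Col9a3 levels was not tested.

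Type 1 collagen, a trimer of Col1a1 and Col1a2 chains and the main fibrillar collagen of later connective tissue, showed a split between its 2 genes. Col1a1 (chr11:94936224-94953042, plus strand) read 20.6, 42.0 and 21.9 CPM in the YFP- fraction, 0.624, 0.365 and 0.925 in the YFP+ fraction, 0.159, 0.259 and 0 in endoderm, and 0.241, 3.46 and 0 in hematopoietic mesoderm. It was thus high in the 3 YFP- libraries, had 20 counts in hematopoietic replicate 2 and at most 5 in each of the other 8. Col1a2 (chr6:4504814-4541544, plus strand) read 14.9, 22.8 and 8.55 CPM in the YFP- fraction, 0.208, 0.729 and 2.41 in the YFP+ fraction, 8.27, 6.86 and 7.37 in endoderm, and 50.1, 43.5 and 2.73 in hematopoietic mesoderm. The YFP+ fraction therefore had little of either chain, while endoderm and the first 2 hematopoietic libraries had Col1a2 with little Col1a1.

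The ratio of Col1a1 to Col1a2 per kilobase was 2.62, 3.48 and 4.85 in the YFP- libraries. It was 0.0364, 0.0714 and 0 in endoderm and 0.00910, 0.151 and 0 in hematopoietic mesoderm. In the YFP+ libraries it rested on 1 to 13 counts a gene. The lengths used, 6563 bases for Col1a1 and 12426 for Col1a2, join all annotated exons, so the size of the ratio is approximate. In counts, the YFP- libraries held 123, 300 and 151 for Col1a1 and 89, 163 and 59 for Col1a2. Col1a1 was called for any difference among the 4 types (edgeR adjusted p = 0.0314) but in no pair. Its log2 fold change of the YFP- fraction over endoderm was 7.48 ± 1.84 (edgeR adjusted p = 0.0739), where DESeq2 gave an adjusted p of 5.97e-06, limma voom with library weights 6.1e-05 and edgeR on these 2 types alone 0.00215. With RLE scaling, or with any single library of these 2 types left out, Col1a1 was not called in this pair. In counts, 574 against 3, the ratio was 214 (95% exact interval 73.0 to 1043, counting error only).

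**Figure D4:**
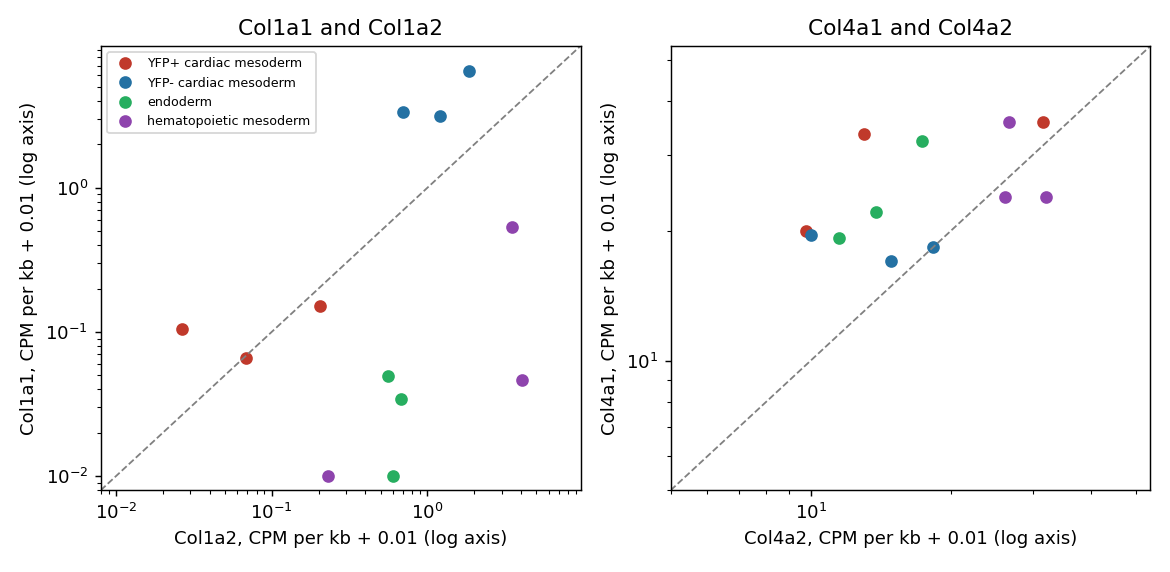
Level of Col1a1 against Col1a2 (left) and of Col4a1 against Col4a2 (right), both axes in CPM per kb plus 0.01 on log scales, with 1 point per library, colours for the 4 sorted types and a dashed line of equality. The 3 YFP- points lie above the line for type 1 collagen, at ratios of 2.62 to 4.85, with endoderm and hematopoietic points below it, and the type 4 points stay near the line.

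Type 5 collagen chains nucleate type 1 fibrils. Col5a1 read 37.0, 25.3 and 6.66 CPM in the YFP+ fraction, 39.2, 20.6 and 34.2 in the YFP- fraction, 13.8, 14.2 and 11.3 in endoderm, and 81.7, 19.7 and 0.210 in hematopoietic mesoderm. Its partner Col5a2 was at most 26.2 CPM in any library. In hematopoietic mesoderm the ratio of Col5a1 to Col5a2 per kilobase was 63.8, 0.853 and 0.0251, whereas in endoderm it was 8.19, 8.88 and 4.88. Neither chain was called in any pair, nor was Col5a1 without hematopoietic replicate 3 (edgeR adjusted p from 0.175 to 0.704).

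Of the collagens at the cell surface, Col23a1, a transmembrane collagen, was lowest in hematopoietic mesoderm. It read 36.0, 39.2 and 56.4 CPM in the YFP+ fraction, 21.6, 10.2 and 18.4 in the YFP- fraction, 58.4, 10.2 and 43.3 in endoderm, and 0.241, 8.14 and 0.420 in hematopoietic mesoderm. Each hematopoietic library was under all 9 others. The YFP+ fraction over hematopoietic mesoderm was at 3.87 ± 1.18 (log2 fold change, edgeR adjusted p = 0.114), not called. Without hematopoietic replicate 2, the highest library of its type at 8.14 CPM, it was 6.96 ± 1.17 (edgeR adjusted p = 0.0123). Without hematopoietic replicate 3 it was 3.37 ± 1.18 (edgeR adjusted p = 0.15). Col13a1, the other transmembrane collagen at this level, ranged from 1.19 to 56.1 CPM with overlap between all types.

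Collagens that attach to fibrils (FACIT collagens), Col9a3 among them, gave 39.9 ± 23.5 CPM in the YFP+ fraction, 38.4 ± 5.30 in the YFP- fraction, 52.7 ± 2.21 in endoderm and 33.4 ± 19.7 in hematopoietic mesoderm, summed over 9 genes. Col19a1 read 14.8, 6.20 and 10.7 CPM in the YFP+ fraction, 1.17, 0.140 and 11.7 in the YFP- fraction, 0.159, 1.94 and 3.33 in endoderm and 0 in all 3 hematopoietic libraries. The YFP+ mean was at least 16.9-fold higher than a hematopoietic level of 3 counts per library. Col14a1 read 1.66, 1.64 and 5.74 CPM in the YFP+ libraries and 8.21, 11.9 and 10.6 in the YFP- ones. Endoderm, at 5.73 to 8.03 CPM, overlapped the YFP+ fraction and lay under the YFP- one. No pair was called for Col14a1 or Col19a1, with edgeR adjusted p of 0.084 or above in every pair.

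Some members were present in 1 library of a type and nearly absent in another. Having 100 counts or more in 1 replicate but no more than 3 in a companion replicate was met for 3 of the 20 members that reached 100 counts in the YFP+ fraction, 0 of 17 in the YFP- fraction, 0 of 15 in endoderm and 5 of 18 in hematopoietic mesoderm. The same held for 8.61%, 3.00%, 0.296% and 14.03% of all tested genes that reached 100 counts. In hematopoietic mesoderm the counts of replicates 1, 2 and 3 were 339, 114 and 1 for Col5a1, 63, 238 and 0 for Col18a1, and 120, 48 and 0 for Col12a1. In the opposite direction, Col9a1 had 0, 0 and 237 counts there, and Tnc 3, 11 and 389. In the YFP+ fraction, Col12a1 had 0, 131 and 0 counts. Means of these genes describe single libraries more than types. The remaining named collagens, Col4a5, Col5a2, Col9a1, Col12a1, Col13a1 and Col18a1, had no called pair.

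Between the 2 cardiac fractions, the abundant matrix genes lay close together. Fn1, Vcan, Has2 and Sparc differed by log2 fold changes of 0.10, 0.17, -0.00 and 0.17 (YFP+ over YFP-), with 95% intervals of -0.10 to 0.31, -0.19 to 0.52, -0.75 to 0.75 and -0.39 to 0.72. No member was called, nor was any other gene (0.0% of all tested), while 7 members and 7.49% of all genes had an unadjusted edgeR p under 0.05. For 7 members the 3 YFP+ libraries lay entirely above or below the 3 YFP- libraries, against 12.1% of all genes. Fn1, Tnc, Col4a1 and Col23a1 were the 4 with the YFP+ libraries higher (5.04% of all genes), and Col1a1, Col1a2 and Col14a1 the 3 with them lower (7.04%).

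The type 1 collagen genes and Tnc had the largest fitted values of these 7 members, none of them called by edgeR. Col1a1 was at -5.42 ± 1.67 and Col1a2 at -3.76 ± 1.22 (log2 fold change, YFP+ over YFP-, edgeR adjusted p = 0.626 for both). DESeq2 called these 2 members alone, at adjusted p = 0.00206 and 0.0148, where it called 1.62% of its tested genes. Tnc stood at 3.60, and DESeq2 gave no adjusted p for it. Over the 33 tested members the median log2 fold change was 0.10, against 0.03 over all genes.

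**Figure D5:**
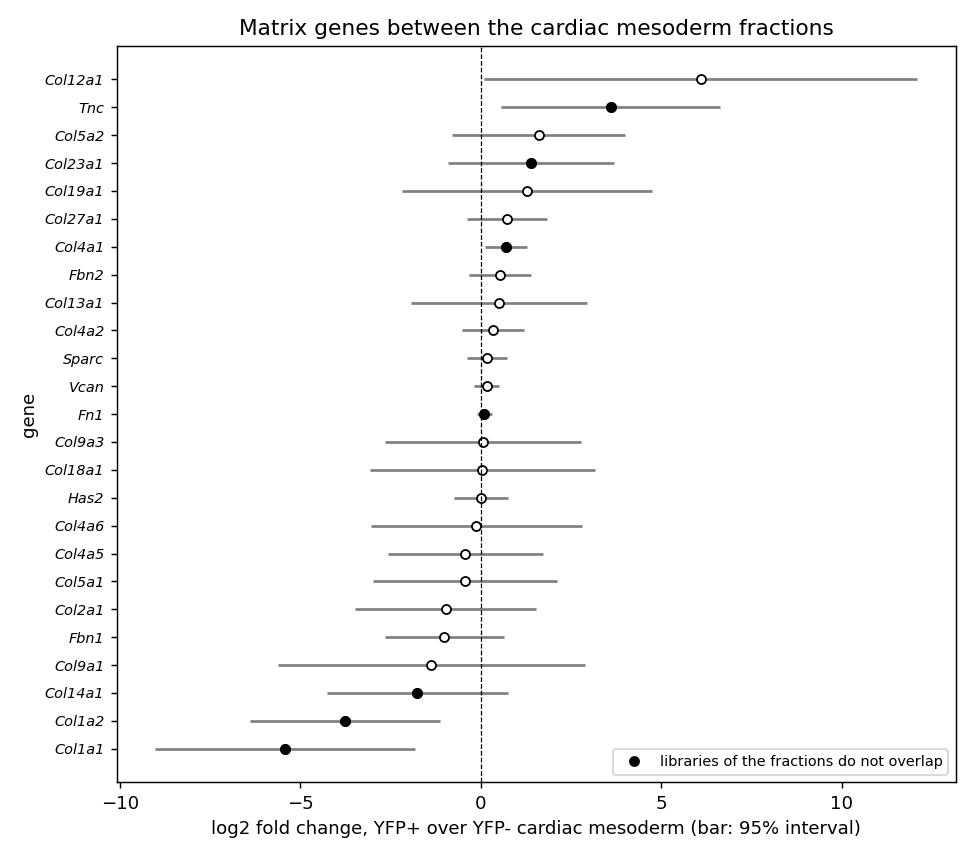
Log2 fold change of YFP+ over the YFP- fraction for the 25 named genes, ordered by size, with bars for the 95% interval of the edgeR fit and filled points where the libraries of the fractions do not overlap. Col1a1 and Col1a2 are lowest at -5.42 and -3.76, and Fn1 has the narrowest interval. Col12a1 is highest at 6.09, which rests on 131 counts in YFP+ replicate 2 against 0 in its companions, and Tnc is at 3.60.

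Against hematopoietic mesoderm, no member was called in the YFP+ fraction (1.79% of all genes were) or in the YFP- fraction (0.593%). At an unadjusted edgeR p under 0.05 there were 10 members in the first pair and 16 in the second, against 19.5% and 17.4% of all genes, and DESeq2 called 5 and 7, against 12.8% and 9.29%. Vcan was at -0.51 ± 0.16 in the YFP+ fraction (log2 fold change over hematopoietic mesoderm, edgeR adjusted p = 0.126) and at -0.68 ± 0.17 in the YFP- fraction (edgeR adjusted p = 0.0874). Col1a2 was at -4.82 ± 1.28 in the YFP+ fraction (edgeR adjusted p = 0.0773). The calls in these pairs changed when single libraries were left out. Without hematopoietic replicate 3, edgeR called Tnc and Vcan (-0.65 ± 0.15, adjusted p = 0.0434) for the YFP+ fraction. It also called Col1a2 there (-5.35 ± 1.06, adjusted p = 0.0201). For the YFP- fraction it then called Vcan (-0.82 ± 0.15, adjusted p = 0.0208) and Fbn2 (-1.15 ± 0.23, adjusted p = 0.0265). Without YFP+ replicate 2 it called Fbn1 (-4.53 ± 0.84, adjusted p = 0.0302), and without hematopoietic replicate 2 it called Col23a1 in both pairs. In each case the library left out held the highest level of that gene in its type.

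The median log2 fold change of the 33 tested members was 0.81 for the YFP+ fraction over endoderm, 1.04 for the YFP- fraction over endoderm and -1.504 for endoderm over hematopoietic mesoderm, against 0.01, 0.01 and 0.07 over all tested genes. For the 26 tested collagens alone it was 0.40, 0.26 and -0.59. Fitted values were higher than in endoderm for 24 of the 33 members in the YFP+ fraction, 23 in the YFP- fraction and 21 in hematopoietic mesoderm, against 50.3%, 50.9% and 47.1% of all tested genes. Of the 26 tested collagens they were higher for 17, 16 and 14.

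Genes that fold, modify and cut collagen were read beside the members, from a list of 35 genes of which 29 were tested. In pairs, 2 of the 29 were called for the YFP+ fraction over endoderm, 1 for the YFP- fraction over endoderm, 1 for the YFP+ fraction over hematopoietic mesoderm and 1 for endoderm against hematopoietic mesoderm, where 1.54%, 1.31%, 1.79% and 5.65% of all genes were called. P3h2, a prolyl 3-hydroxylase of collagen, averaged 168 ± 50.2 CPM in the YFP+ fraction, 132 ± 42.8 in the YFP- fraction, 28.1 ± 14.8 in endoderm and 25.7 ± 19.4 in hematopoietic mesoderm. It was called higher in the YFP+ fraction than in endoderm (log2 fold change 2.58 ± 0.58, edgeR adjusted p = 0.0442) and than in hematopoietic mesoderm (2.71 ± 0.58, edgeR adjusted p = 0.0395). The first call was lost with any 1 of the 6 libraries left out (adjusted p from 0.064 to 0.198), with the replicate block (0.0684) and with RLE scaling (0.0512). The second was lost with any library left out but hematopoietic replicate 3 (0.0596 to 0.0961), with the replicate block (0.0725), in voom (0.261) and with only those types fitted (0.192), and without hematopoietic replicate 3 it was 3.54 ± 0.56 (0.00691). Adamts3, a protease that removes the amino-terminal propeptide of fibrillar procollagen, averaged 104 ± 40.7, 80.3 ± 19.2, 9.23 ± 1.99 and 161 ± 82.2 CPM in the same order. Like Fn1 and Vcan it was called lower in endoderm against each mesoderm type, with log2 fold changes of 3.49 ± 0.50 and 3.12 ± 0.49 for the cardiac fractions over endoderm (edgeR adjusted p = 0.00294 and 0.00558) and -4.12 ± 0.51 for endoderm over hematopoietic mesoderm (0.000825). The YFP- call was lost without endoderm replicate 1 or 3 (0.052 and 0.0535). No other tested gene of the list was called in any pair. Serpinh1, the collagen-specific chaperone, read 47.2 to 236 CPM over the 12 libraries. The list's median log2 fold change was 0.27 and 0.26 for the cardiac fractions over endoderm, against 0.01 over all genes in both pairs.

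Partners of hyaluronan and versican formed a list of 24 genes, with 14 tested. The 1 called gene was Hapln1, a link protein that locks versican onto hyaluronan. It read 676, 570.5 and 78.3 CPM in hematopoietic mesoderm, 1.59, 1.17 and 0.713 in endoderm, 9.78, 96.0 and 1.48 in the YFP+ fraction, and 15.9, 20.7 and 18.7 in the YFP- fraction. Hematopoietic replicates 1 and 2 were far above all other libraries. The log2 fold change of endoderm over hematopoietic mesoderm was -8.57 ± 1.41, with an edgeR adjusted p of 0.00516. Without hematopoietic replicate 3 it was -9.07 ± 1.29 (adjusted p = 0.00244), and Hapln1 was then also called lower in the YFP- fraction than in hematopoietic mesoderm, by -5.07 ± 1.06 (edgeR adjusted p = 0.0362). The highest cardiac value was again in YFP+ replicate 2, and the part of hematopoietic cells in it was not tested. The other hyaluronan synthases were low. Has1 was at most 2.68 CPM and Has3 at most 24.1 CPM in any library.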

How the data were processed

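RNA was measured in 12 libraries, 3 of each of 4 sorted types, grouped and numbered by the sample titles. RNA was purified with a nanoprep kit and amplified with NuGEN Ovation kits for very small inputs, per the labels' protocols. Each deposited file held unnormalized whole-number counts for every gene, made by the authors. The submitters' processing notes name STAR 2.5.0a, Picard, HTSeq 0.6.0, DESeq2 and the mm10 build. The annotation and the strand setting of the counting are not given in the sources used here, so overlapping and antisense genes are uncertain. Genes took 18.3% to 21.5% of the tallied reads. Reads in no gene, in several genes or aligned to several places stayed out of library sizes and tests. Symbols were matched by gene ID for 37607 of 38924 genes, and exon lengths came from GENCODE's GRCm38 annotation.

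Counts were fitted with edgeR 4.0.16 in R 4.3.3 (TMM scaling, default expression filter, 14170 genes, 1 coefficient per type, 8 residual degrees of freedom, two-sided quasi-likelihood tests, Benjamini-Hochberg adjustment over all tested genes of a pair). Standard errors come from the log2 fold change and the F statistic. Alternatives were RLE scaling, no filter, DESeq2 1.42.0, a block on replicate number, limma 3.58.1 voom with library weights, fitting only the 2 types compared, and leaving out each library. The genes named were the 7 non-collagen members, collagens with a mean of at least 10 CPM in a type, and called members. A planned search for genes of similar pattern is not reported, since the libraries fall into 4 types. The members, gene lists and marker lists were chosen with earlier results of these data known. Same-numbered libraries did not deviate together (correlations across genes of -0.0177 to 0.0319), so the numbers were not treated as pairs. The file names carry 3 dates, 1 per replicate number, each with 1 library of every type, and what the dates stand for is not given. Replicates of a type differed by more than sampling noise. Intervals from counts are exact 95% intervals and, like the limit of 3 counts set for a count of 0, cover counting error only. On counts simulated for the YFP+ fraction against endoderm over 13602 genes, edgeR called 4%, 32%, 56% and 58% of 50 genes each changed 2-, 4-, 8- and 16-fold, and 3 of 13402 unchanged genes. The changed genes were drawn only from the more abundant genes and were raised in the YFP+ libraries. These rates therefore do not cover members with low levels or genes that fall.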

Additional observations from a re-analysis of the deposited data

How the results depend on the processing

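The 6 pairs are given in the order YFP+ against YFP-, YFP+ and YFP- against endoderm, YFP+ and YFP- against hematopoietic mesoderm, and endoderm against hematopoietic mesoderm. With RLE scaling the number of members called was 0, 7, 4, 0, 0 and 8, as with TMM. DESeq2 called 2 members between the cardiac fractions (0 with edgeR), 8 between the YFP- fraction and endoderm (4), 5 and 7 between the YFP+ and YFP- fractions and hematopoietic mesoderm (0 and 0), and 13 between endoderm and hematopoietic mesoderm (8). For the YFP- fraction against endoderm, fitting only the 2 types gave 9 and limma voom 9. Without the expression filter 1 member was called in each comparison of a cardiac fraction with hematopoietic mesoderm (Fbn1 for the YFP+ and Vcan for the YFP- fraction), and voom called 2 for the YFP- fraction. With the replicate number as a block the counts were 0, 5, 4, 1, 0 and 7 in the 6 pairs and 6 among the 4 types. Leaving out 1 library gave 0 between the cardiac fractions, 3 to 4 for the YFP+ and 3 for the YFP- fraction against endoderm, 0 to 3 and 0 to 2 against hematopoietic mesoderm, 5 to 10 for endoderm against hematopoietic mesoderm, and 4 to 10 among the 4 types. Such fits have fewer libraries by construction. Apart from DESeq2, the share of all genes called is not given for these alternatives. Their member counts therefore cannot be read against such a share. Over the refits that gave an adjusted p for the members called in a pair, 181 kept the call, 44 lost it and 0 changed direction. For Tnc, DESeq2 gave none in either called endoderm pair. The fit of only endoderm and hematopoietic mesoderm gave none for Tnc either. Members with few counts, such as Col1a1 outside the YFP- fraction, are limited by depth, since 3 counts are 0.357 to 0.723 CPM.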

Other observations

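Microfibril and elastic fibre partners of fibronectin and the fibrillins, a list of 37 genes with 20 tested, held 1 called gene. Adamts10, a protease-family protein that associates with fibrillin microfibrils, averaged 159 ± 12.8 CPM in the YFP+ fraction, 75.2 ± 23.7 in the YFP- fraction, 88.5 ± 25.2 in endoderm and 18.8 ± 22.3 in hematopoietic mesoderm. It was higher in the YFP+ fraction than in hematopoietic mesoderm (log2 fold change 3.07 ± 0.70, edgeR adjusted p = 0.0479). The call was lost without any 1 YFP+ library (0.0832 to 0.0853), without hematopoietic replicate 1 (0.0824) or 3 (0.0641), in voom (0.252) and with only those types fitted (0.258). The list's median log2 fold change over hematopoietic mesoderm was 1.72 in the YFP+ fraction, 1.81 in the YFP- fraction and 1.56 in endoderm, against 0.03, 0.02 and 0.07 over all genes. Eln, the gene of elastin itself, was at 0 in 11 of 12 libraries, and Lox, the enzyme that cross-links collagen and elastin, at 0 in 10 of 12.

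Among 23 collagen receptors and matrix proteases, 18 of them tested, Mrc2, an endocytic receptor that takes up collagen, averaged 55.1 ± 12.7 CPM in the YFP+ fraction, 50.2 ± 14.4 in the YFP- fraction, 54.7 ± 12.9 in endoderm and 2.94 ± 3.66 in hematopoietic mesoderm. The YFP+ fraction (4.197 ± 0.89, edgeR adjusted p = 0.0387) and endoderm (4.18 ± 0.89, edgeR adjusted p = 0.0207) were called higher than hematopoietic mesoderm on the log2 scale. The first call was lost without any 1 YFP+ library or hematopoietic replicate 3 (0.051 to 0.0701), in voom (0.179) and with only those types fitted (0.341), and the second without any 1 endoderm library (0.0535 to 0.0718) and with only those types fitted (0.0686). Adamts15, of a protease group that cuts versican, was an endoderm gene with 37.1, 29.6 and 15.8 CPM there and at most 0.210 CPM in any other library. It was called higher there than in the YFP- fraction (edgeR adjusted p = 0.0233) and in hematopoietic mesoderm (0.0259), calls lost with the replicate block (0.0634 and 0.051). The first was also lost without any 1 of the 6 libraries (0.0793 to 0.126), and the second without any 1 endoderm library or hematopoietic replicate 1 (0.065 to 0.104). Adamts9, of the same group, averaged 327 ± 88.7 CPM in endoderm, where Vcan was lowest, and 97.4 ± 63.4 CPM in hematopoietic mesoderm (log2 fold change 1.75 ± 0.40, edgeR adjusted p = 0.0286). That call was lost in voom (0.0637), with only those types fitted (0.0653), and without any 1 endoderm library or hematopoietic replicate 1 or 2 (0.0523 to 0.119), and was 2.38 ± 0.35 (0.00311) without hematopoietic replicate 3. None of the 4 accompanying lists had a called gene between the cardiac fractions.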
